A study of Malus domestica with 4 samples.

Results

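Apples first held at 0.4 kPa oxygen and then moved to 0.8 kPa were compared with apples that had spent 24 days at 0.8 kPa oxygen, and both held 0.8 kPa oxygen around the fruit when cortex was taken. Of 63514 gene models in the table of these conditions, 20711 reached 10 counts in either of them and make up the comparison. The fruit were Malus domestica, cultivar Granny Smith, kept in cold storage under low oxygen, and RNA was read from slices of cortex, the flesh of the fruit, cut around the equator. The shifted sample was stored at 0.4 kPa oxygen, then at 0.8 kPa, and its day is not in the labels. The 0.8ox sample was collected after 24 days in atmosphere (DIA) at 0.8 kPa, and the study's sampling plan places the shift after that day. Oxygen history and time in storage therefore cannot be told apart between the 2 samples. The same series holds 2 further conditions, 0.4ox at 24 DIA and fruit in normoxia at the start (T0), in tables of their own. The 0.4ox values are given only beside those of the shifted sample.

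Each condition has 1 estimated count per gene, merged from 3 libraries, and a variance that the counting program modelled for it. Values of single libraries were not analysed, so a value printed as 43.2 ± 5.6 is a level and the square root of its modelled variance, and no n attaches to it. Levels are given as CPM, the counts of a gene per 1000000 counts of its condition, without correction for gene length, and are compared between conditions for 1 gene at a time. The totals were 4865029 counts in the shifted sample and 5363827 in 0.8ox. The cortex label was not checked against markers of other fruit tissues, since no gene described in the sources used here carries such a role.

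When oxygen falls too low for respiration, plant cells make ATP by glycolysis and regenerate NAD by fermentation, in which pyruvate decarboxylase and alcohol dehydrogenase convert pyruvate to ethanol. In Arabidopsis, ethylene response factors (ERFs) of group VII are unstable in air and persist under hypoxia, where they switch on a core set of genes. In stored apples, low oxygen also slows ethylene formation and softening, to which enzymes that cut pectin contribute.

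After the shift, the fruit differed from 0.8ox in 405 of 20669 genes that could be tested, 1.96% of them. Of these, 319 genes (1.54%) were higher and 86 genes (0.416%) were lower in the shifted sample. Phenylalanine ammonia lyase, the entry enzyme of phenylpropanoid synthesis, and WRKY33, a stress-related transcription factor in Arabidopsis, were among those higher than in 0.8ox, by 17.6-fold for the ammonia lyase gene with the largest ratio and by 12.8-fold for WRKY33. A polygalacturonase, which cuts the pectin backbone, was 42.2-fold lower and a dicarboxylate carrier, a transporter of malate and related acids, was 10.02-fold lower. None of the 7 tested hypoxia markers and none of the 5 tested group VII ERFs passed the test. In such slices of tissue, fewer cells of a type and less RNA per cell cannot be told apart.

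A gene was called where the log2 ratio of its levels, divided by the SE derived from both variances, had a Benjamini-Hochberg adjusted p under 0.001 over all tested genes. That quotient was set against the normal distribution (two-sided), which is a test of the pooled counts against their modelled variance and not a test across libraries. At this threshold, a gene with the smallest SEs had to differ by about 2-fold to be called. Genes with larger SEs had to differ by more. Of 405 called genes, 395 were over 2-fold, 314 of them higher and 81 lower. In the other 20264 genes, 18552 were within 2-fold, and the smallest change that was called was 0.95 on the log2 scale. Changes over 8-fold were found for 63 higher and 8 lower genes. The median log2 ratio was 1.77 over the genes called higher and -1.49 over those called lower.

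The count of genes in each direction depends on the scale. Dividing by the totals put the median log2 ratio of all tested genes at 0.15, so a gene at the median stands slightly above 0. With the counts as deposited that median was 0.01, and 237 genes were called higher and 123 lower, so that 65.8% of the called genes were higher in the shifted sample in place of 78.8%.

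**Figure D1:**
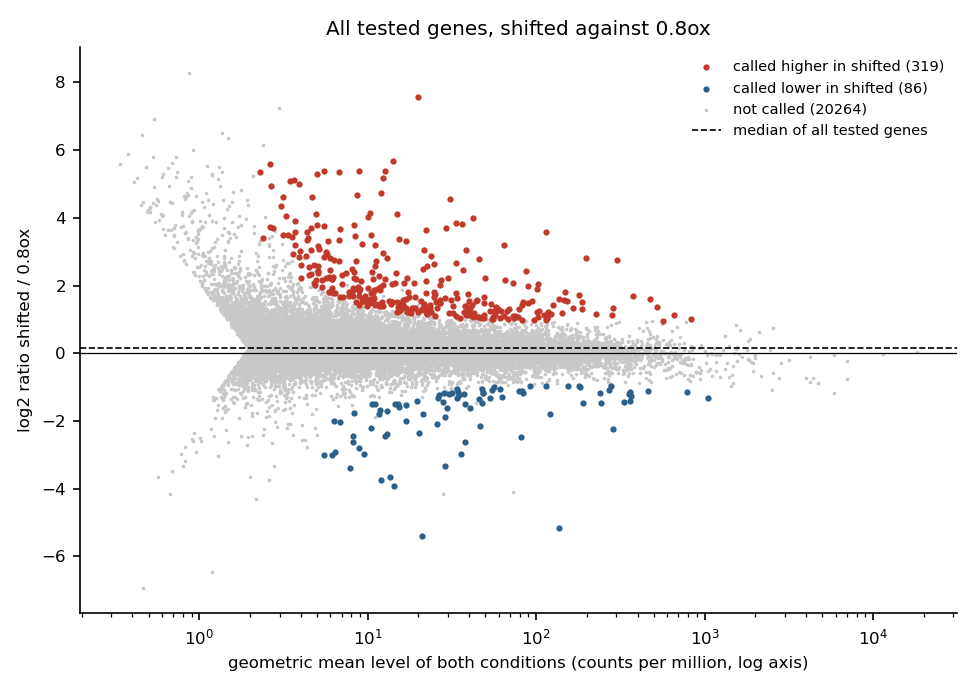
Log2 ratio of shifted over 0.8ox (vertical axis) against the geometric mean of both levels (horizontal axis, CPM, log scale) for the 20669 tested genes. The 319 genes called higher in the shifted sample and the 86 called lower are coloured, and the dashed line is the median of all tested genes at 0.15.

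The phenylpropanoid pathway begins when phenylalanine ammonia lyase (PAL) removes the amino group of phenylalanine, and leads to lignin precursors, flavonoids and other phenolics. MDP0000388769, a PAL gene, was measured at 43.2 ± 5.6 CPM in the shifted sample and 2.46 ± 0.70 in 0.8ox, a log2 ratio of 4.14 (SE 0.45, adjusted p = 2.5e-17, test on modelled variances). MDP0000668828, another PAL gene, had 50.5 ± 5.8 CPM in the shifted sample and 8.96 ± 1.38 in 0.8ox, a log2 ratio of 2.49 (SE 0.28). The most abundant PAL gene, MDP0000787168, had 457 ± 49 CPM in the shifted sample and 179 ± 19 in 0.8ox, a log2 ratio of 1.35 (SE 0.22). These 3 genes were higher than in 0.8ox, and another, MDP0000139075, had 2.82 CPM in the shifted sample and 0.388 in 0.8ox and did not pass (adjusted p = 0.22).

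Enzymes further along the pathway did not pass. Cinnamoyl CoA reductase, an enzyme of lignin precursor synthesis (MDP0000322755), had 97.0 CPM in the shifted sample and 76.5 in 0.8ox. Dihydroflavonol 4-reductase, an enzyme of anthocyanin synthesis (MDP0000494976), had 26.9 in the shifted sample and 16.02 in 0.8ox. A dirigent-like gene (MDP0000125256), of a family that guides the coupling of lignin-type precursors, was lower, at 3.13 ± 0.82 CPM in the shifted sample and 12.6 ± 1.7 in 0.8ox. It was the 1 gene called of 2 tested in a list drawn from descriptions. Of the ammonia lyase and later enzymes named above, 3 of 6 were called higher and 0 lower, with a median log2 ratio of 1.92 against 0.15 over all tested genes. The study chose these 6 genes on 0.4ox and 0.8ox, and 0.8ox is part of this comparison, so their direction is not independent evidence. The log2 ratio of 0.4ox over 0.8ox, which has the same 0.8ox sample, was 3.51 (SE 0.34) for MDP0000388769, 1.61 (SE 0.26) for MDP0000668828 and 1.76 (SE 0.21) for MDP0000787168. Of the 0.8ox count of MDP0000388769 in that other table, 41.8% was counted here, a point taken up below.

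Acetoacetyl-CoA thiolase (MDP0000231084) forms acetoacetyl-CoA, the first intermediate of the mevalonate pathway, from which sterols and sesquiterpenes are made. Its level was 262 ± 31 CPM in the shifted sample and 89.1 ± 9.7 in 0.8ox, so it was 2.94-fold higher (log2 ratio 1.56, SE 0.23). Isopentenyl diphosphate isomerase 1 (MDP0000198327), a later step, had 4.82 CPM in the shifted sample and 1.13 in 0.8ox and did not pass (adjusted p = 0.056, test on modelled variances). Terpene synthase 02 (MDP0000199152), which belongs to the family that makes volatile terpenes, was 5.41-fold lower, with 3.51 ± 0.87 CPM in the shifted sample and 18.98 ± 2.58 in 0.8ox. Of the 3 terpene synthesis genes tested, 1 was lower and 0 were higher.

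Cell wall genes moved in both directions. The polygalacturonase MDP0000326734 was found at 3.25 ± 0.82 CPM in the shifted sample and 137 ± 15 in 0.8ox, a log2 ratio of -5.40 (SE 0.40, adjusted p = 1.1e-38, test on modelled variances), the lowest among called genes whose higher condition held 100 counts or more. That level in the shifted sample rests on 15.8 counts, against 736 in 0.8ox. In the other table, 0.4ox over 0.8ox gave a log2 ratio of -4.46 (SE 0.33) for this gene. A pectin lyase-like gene (MDP0000225538) had 12.8 ± 1.8 CPM in the shifted sample and 101.1 ± 10.9 in 0.8ox, and was 7.91-fold lower.

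The list also holds called genes for wall proteins, all lower than in 0.8ox. Fasciclin-like arabinogalactan protein 10 (MDP0000658332) had 15.3 ± 2.2 CPM in the shifted sample and 93.8 ± 10.2 in 0.8ox. Extensin 3 (MDP0000750914), a wall protein that is crosslinked into a network, had 5.40 ± 1.07 in the shifted sample and 29.5 ± 3.6 in 0.8ox. Arabinogalactan protein 14 (MDP0000143641) had 6.63 in the shifted sample and 21.2 in 0.8ox. Of 12 tested genes of the cell wall list, which has 32, 0 were higher and 5 (41.7%) were lower. Their median log2 ratio was -1.64, against 0.15 over all tested genes, of which 1.54% were called higher and 0.416% lower. The list was drawn from descriptions of genes high in 0.8ox, so its direction is not independent evidence.

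The wall gene called higher was glycosyl hydrolase 9B1 (MDP0000199273), an endoglucanase, a class of enzymes that cut beta-glucans such as cellulose. It had 28.7 ± 4.0 CPM in the shifted sample and 4.33 ± 0.92 in 0.8ox, a log2 ratio of 2.73 (SE 0.37). Several other wall genes that the study names did not reach the threshold. A COBRA-like gene (MDP0000288732) had 49.4 CPM in the shifted sample and 24.8 in 0.8ox (adjusted p = 0.0023), and a pectin lyase-like gene (MDP0000130769) had 11.7 in the shifted sample and 3.99 in 0.8ox (adjusted p = 0.0020). A xyloglucan endotransglucosylase/hydrolase, an enzyme that cuts and rejoins xyloglucan (MDP0000310152), had 733 in the shifted sample and 938 in 0.8ox (adjusted p = 0.48). These come from a set of 12 wall genes, only a part of those the study names, chosen with earlier results of these data known. Of its 9 tested genes, the polygalacturonase included, 1 was higher and 1 was lower, and the median log2 ratio was 1.06.

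**Figure D2:**
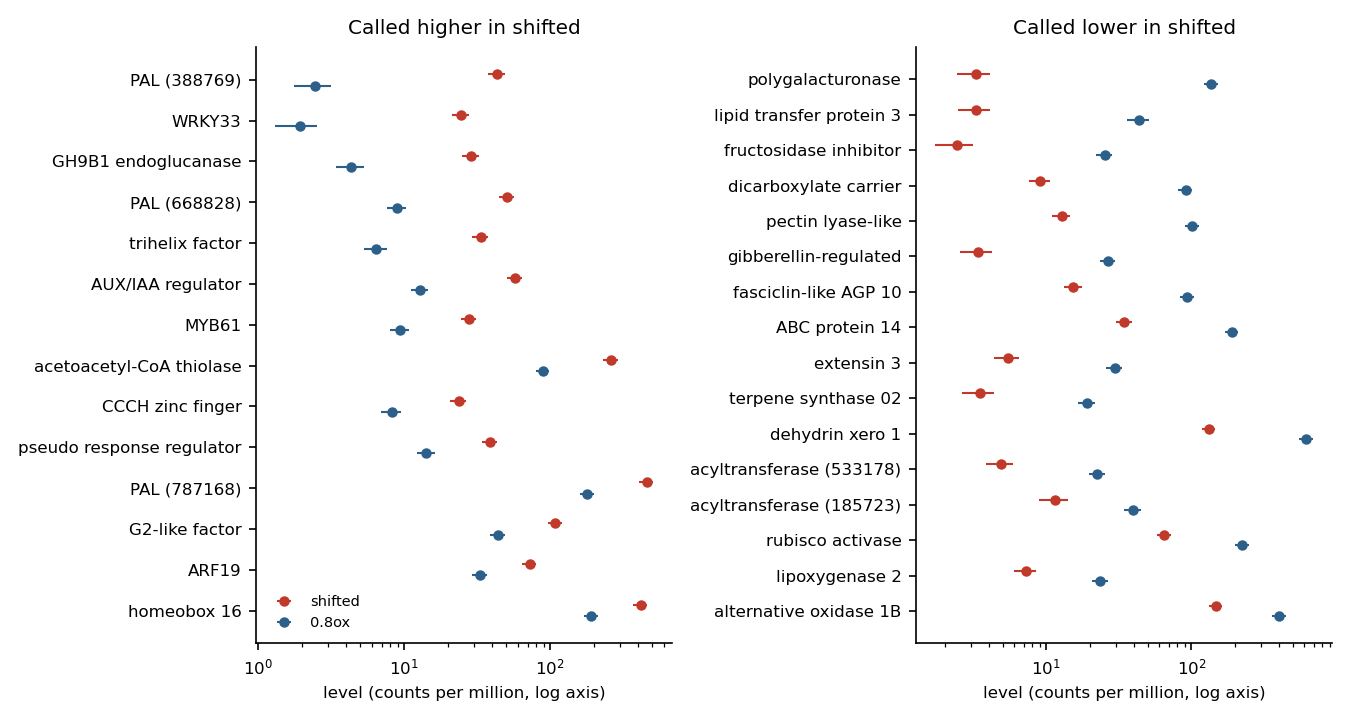
Levels (CPM, log axis) in the shifted sample (red) and in 0.8ox (blue) of 14 described genes called higher and of 16 called lower in the shifted sample, ordered by the size of their ratio. Bars are the square root of the modelled variance; for PAL MDP0000388769 the points stand at 43.2 in the shifted sample and 2.46 in 0.8ox, and for the polygalacturonase at 3.25 in the shifted sample and 137 in 0.8ox.

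Transport genes that were described were lower in the shifted sample than in 0.8ox or did not pass. The dicarboxylate carrier MDP0000309741 had 9.10 ± 1.49 CPM in the shifted sample and 91.2 ± 10.1 in 0.8ox, a log2 ratio of -3.33 (SE 0.29). Its ratio of 0.4ox over 0.8ox in the other table was -5.54 (SE 0.54) on the log2 scale. A tonoplast dicarboxylate transporter, which moves malate across the vacuole membrane (MDP0000147335), had 40.1 ± 4.7 CPM in the shifted sample and 98.3 ± 10.6 in 0.8ox. Both were lower than in 0.8ox, and the other 7 tested members of the dicarboxylate list, among them the most abundant one, MDP0000813710, at 199 CPM in the shifted sample and 355 in 0.8ox, did not pass. That gene passed with the counts as deposited (adjusted p = 0.00040). The log2 ratios of the 9 tested members ran between -3.33 and -0.76, with a median of -0.92.

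Sulfate transporter 3;1 (MDP0000231619) had 200.3 ± 21.5 CPM in the shifted sample and 388 ± 41 in 0.8ox, a log2 ratio of -0.95 (SE 0.22, adjusted p = 0.00071, test on modelled variances), and was the only 1 of 3 tested sulfate transporters called. It missed the threshold when genes with low counts were kept in the test (adjusted p = 0.0012). A gene described as non-intrinsic ABC protein 14 (MDP0000219021) had 34.6 ± 4.2 CPM in the shifted sample and 190.8 ± 20.2 in 0.8ox. Whether it has a role in transport was not tested. Of 4 tested sugar and polyol transporters, 0 were called (1, lower, with TMM scaling), and of 2 tested nitrate genes, 0 were called. Nitrate transporter 1.5 (MDP0000138927), whose log2 ratio of 0.4ox over 0.8ox was -3.31, had 81.5 CPM in the shifted sample and 96.9 in 0.8ox, a log2 ratio of -0.25 (SE 0.23).

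The lists of respiration, carbohydrate and amino acid genes gave 1 call each. Alternative oxidase 1B (MDP0000940411), a mitochondrial terminal oxidase that bypasses the cytochrome pathway, had 147 ± 16 CPM in the shifted sample and 404 ± 43 in 0.8ox, and was 2.75-fold lower. An inhibitor of fructosidases, the invertase inhibitor MDP0000305934, had 2.42 ± 0.71 in the shifted sample and 25.2 ± 3.2 in 0.8ox. Sucrose phosphate synthase 3F (MDP0000783676), an enzyme of sucrose synthesis, had 199 in the shifted sample and 369 in 0.8ox and missed the threshold (adjusted p = 0.0019), although it passed with the counts as deposited (adjusted p = 0.00015). Asparagine synthase 1 (MDP0000096208), which stores nitrogen in asparagine, had 23.1 ± 3.0 CPM in the shifted sample and 70.3 ± 7.9 in 0.8ox. The 4 tested genes of amino acid metabolism included 1 called lower and 0 called higher. With the counts as deposited, a cytochrome c oxidase 17 gene (MDP0000731976), for a copper chaperone of respiration, with 6.89 CPM in the shifted sample and 16.2 in 0.8ox, also passed (adjusted p = 0.00096, against 0.0041 with totals).

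An aldehyde dehydrogenase (MDP0000211987), of the family that oxidizes aldehydes to acids, had 128 ± 14 CPM in the shifted sample and 252 ± 27 in 0.8ox, a log2 ratio of -0.98 (SE 0.22). Rubisco activase (MDP0000223905), which keeps the carbon-fixing enzyme active in light, had 65.1 ± 7.3 in the shifted sample and 224.7 ± 23.8 in 0.8ox. A chlorophyll a/b binding protein (MDP0000840536), of the light-harvesting antenna, had 52.0 in the shifted sample and 68.6 in 0.8ox and did not pass, and 1 of the 4 tested photosynthesis genes was called, lower. Another rubisco activase gene (MDP0000944409), at 3.88 CPM in the shifted sample and 11.5 in 0.8ox, did not pass (adjusted p = 0.0025), although it did with the counts as deposited (adjusted p = 0.00072), with median centring and with TMM scaling.

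In the lists of heat shock, dehydration and lipoxygenase genes, the called members were lower. Dehydrin xero 1 (MDP0000868045), of a family that accumulates under cold and drying, had 132 ± 14 CPM in the shifted sample and 622 ± 69 in 0.8ox, a log2 ratio of -2.24 (SE 0.22). It was the 1 called gene of 8 tested for heat shock and dehydration, where TMM scaling gave 2. Lipid transfer protein 3 (MDP0000285074) had 3.28 ± 0.82 CPM in the shifted sample and 43.6 ± 7.5 in 0.8ox. Lipoxygenase 2 (MDP0000169311), an enzyme that oxygenates fatty acids, had 7.28 ± 1.27 in the shifted sample and 23.6 ± 3.0 in 0.8ox.

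Acyltransferases of the HXXXD type, a family that joins acyl groups to alcohols and amines in ester and phenolic synthesis, were called for 2 of 9 tested members. The list has 32 genes, and the rest could not be tested. MDP0000533178 had 4.87 ± 1.01 CPM in the shifted sample and 22.4 ± 2.9 in 0.8ox, and MDP0000185723 had 11.5 ± 2.5 in the shifted sample and 39.8 ± 5.3 in 0.8ox. Both were lower than in 0.8ox. Of their 0.8ox counts in the table with 0.4ox, 39.5% and 30.4% were counted here. The hexenol acetyltransferase MDP0000722697, which makes a leaf volatile, had 3.83 in the shifted sample and 1.92 in 0.8ox and did not pass (adjusted p = 0.41). Of the lists not described so far, the MLP-like and pathogenesis-related genes had 1 lower of 4 tested. It was MDP0000294379, an MLP-like protein, at 111 CPM in the shifted sample and 217.6 in 0.8ox. Of its 0.8ox count in the table with 0.4ox, 32.4% was counted here. The list of ribosomal proteins had 1 lower of 4, MDP0000289712, which was 1.95-fold lower. Its description, ribosomal protein S5/elongation factor G/III/V family protein, also names an elongation factor, so its place in this list is uncertain. Both calls were lost when genes with low counts were kept in the test, and the MLP-like gene also missed the threshold by the edgeR exact test (adjusted p = 0.00102). The lists of cytochrome P450 genes (3 tested), trehalose phosphate genes (2 tested), WRKY factors (1 tested) and oxygenases (1 tested) gave 0 calls, and the 5 fermentation genes drawn from descriptions could not be tested.

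All lists other than the transcription factors, the hypoxia markers, the ERFs, ACC oxidase, the reference gene and the genes that the study names in its text or figures, the auxin response list included, were drawn from descriptions in a table sorted by excess in 0.8ox over 0.4ox. Only its first 1998 rows were used, so these lists lean to genes high in 0.8ox, and WRKY33, for one, is not in the list of WRKY factors. Of the called genes, 52 carry a description, 14 of the higher and 38 of the lower ones, while 353 do not. A list that holds genes high in 0.8ox leans by its construction to lower values against that same sample, so the direction of these lists is described and not tested. The counts of each list stand beside 1.54% called higher and 0.416% called lower over all tested genes.

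**Figure D3:**
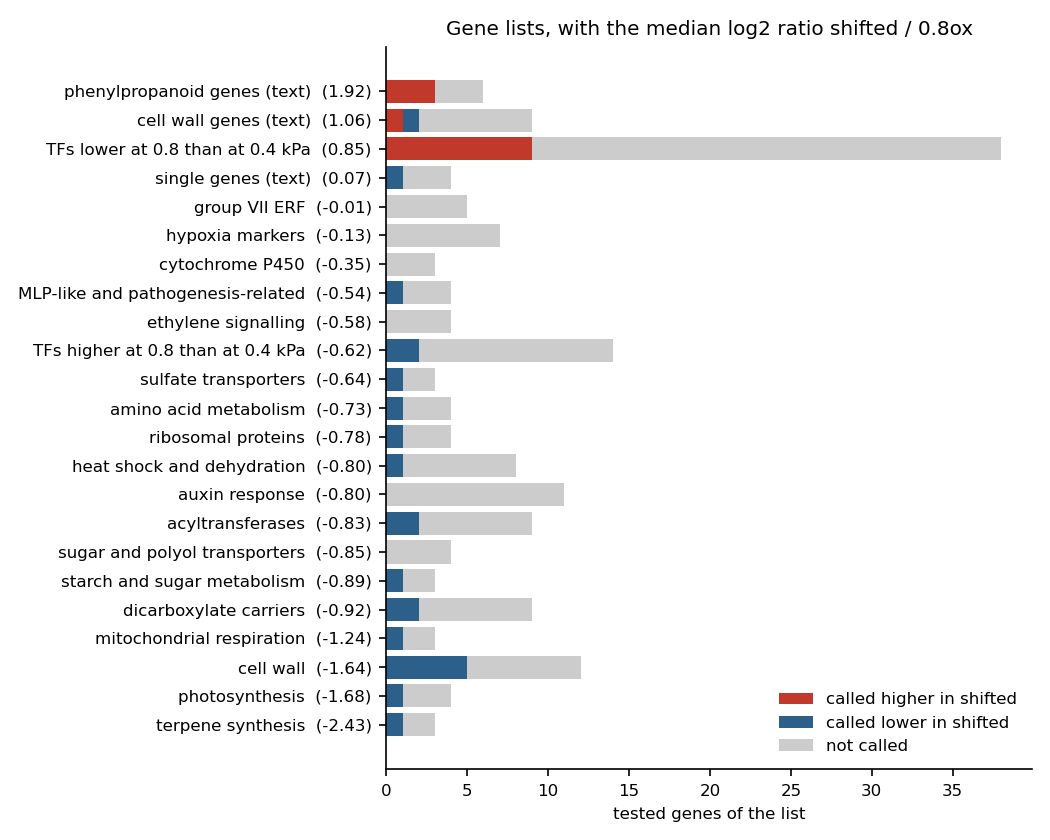
Tested genes of each gene list with at least 3 tested members (horizontal axis, number of genes), split into called higher in the shifted sample, called lower and not called. The number in brackets is the median log2 ratio of shifted over 0.8ox, which was 1.92 for the phenylpropanoid genes and -1.64 for the cell wall list, and 0.15 over all tested genes.

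Transcription factors were described by the study according to their level at 0.8 against 0.4 kPa oxygen. Of the 45 listed as lower at 0.8 kPa, 38 could be tested, and 9 of these (23.7%) were higher in the shifted sample than in 0.8ox, 0 were lower and 29 did not pass. Their median log2 ratio was 0.85. Of the 18 listed as higher at 0.8 kPa, 14 could be tested, 0 were higher and 2 (14.3%) were lower, with a median of -0.62. Over all tested genes, 1.54% were called higher and 0.416% lower, with a median log2 ratio of 0.15. Since both lists were drawn with the 0.8ox sample, their direction here is not independent evidence.

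WRKY33 (MDP0000708692) had 24.5 ± 3.2 CPM in the shifted sample and 1.92 ± 0.62 in 0.8ox, a log2 ratio of 3.67 (SE 0.50, adjusted p = 8.3e-11, test on modelled variances). Its ratio of 0.4ox over 0.8ox was 2.46 (SE 0.49) on the same scale. A trihelix factor (MDP0000209313) had 33.5 ± 4.2 CPM in the shifted sample and 6.44 ± 1.15 in 0.8ox.

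Among auxin-related factors, an AUX/IAA gene (MDP0000223496), of the repressors that auxin removes, had 57.4 ± 6.6 CPM in the shifted sample and 12.8 ± 1.8 in 0.8ox, a log2 ratio of 2.16 (SE 0.26). Auxin response factor 19 (MDP0000268306), a DNA-binding partner of such repressors, had 72.4 ± 8.0 in the shifted sample and 33.1 ± 4.0 in 0.8ox (adjusted p = 0.00012). It missed the threshold with the counts as deposited (adjusted p = 0.00145). Of 11 tested genes of the auxin response list, drawn from descriptions of genes high in 0.8ox, 0 were called and the median log2 ratio was -0.80. With TMM scaling 1 of them, MDP0000211459, was called lower (adjusted p = 0.00093); it is also in the list of factors higher at 0.8 kPa.

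MYB61 (MDP0000653903), a factor tied to wall formation in Arabidopsis, had 27.8 ± 3.5 CPM in the shifted sample and 9.39 ± 1.44 in 0.8ox. Homeobox 16 (MDP0000736852), the most abundant of the called factors, had 416 ± 45 in the shifted sample and 191.7 ± 20.3 in 0.8ox, a log2 ratio of 1.12 (SE 0.22). The other 3 called higher were a G2-like factor (MDP0000809773) at 2.47-fold, a CCCH zinc finger protein (MDP0000220601) at 2.88-fold and a pseudo response regulator (MDP0000237396) at 2.71-fold.

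Both factors called lower belong to the list of genes higher at 0.8 kPa. A MADS box gene (MDP0000212925) had 2.32 ± 0.71 CPM in the shifted sample and 17.6 ± 2.4 in 0.8ox. A subunit B of nuclear factor Y (MDP0000320719), which binds the CCAAT box as part of a trimer, had 28.7 ± 3.6 in the shifted sample and 80.3 ± 8.8 in 0.8ox.

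In the list of factors lower at 0.8 kPa, 35 of 38 ratios of shifted over 0.8ox were positive and 3 were negative, with none of the 3 called. The lowest was that of LOB41. LOB domain-containing protein 41 (MDP0000881409), whose Arabidopsis namesake belongs to the core hypoxia genes, had 80.7 CPM in the shifted sample and 132 in 0.8ox, a log2 ratio of -0.71 (SE 0.22, adjusted p = 0.028, test on modelled variances). Its ratio of 0.4ox over 0.8ox was 1.14 on the log2 scale.

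**Figure D4:**
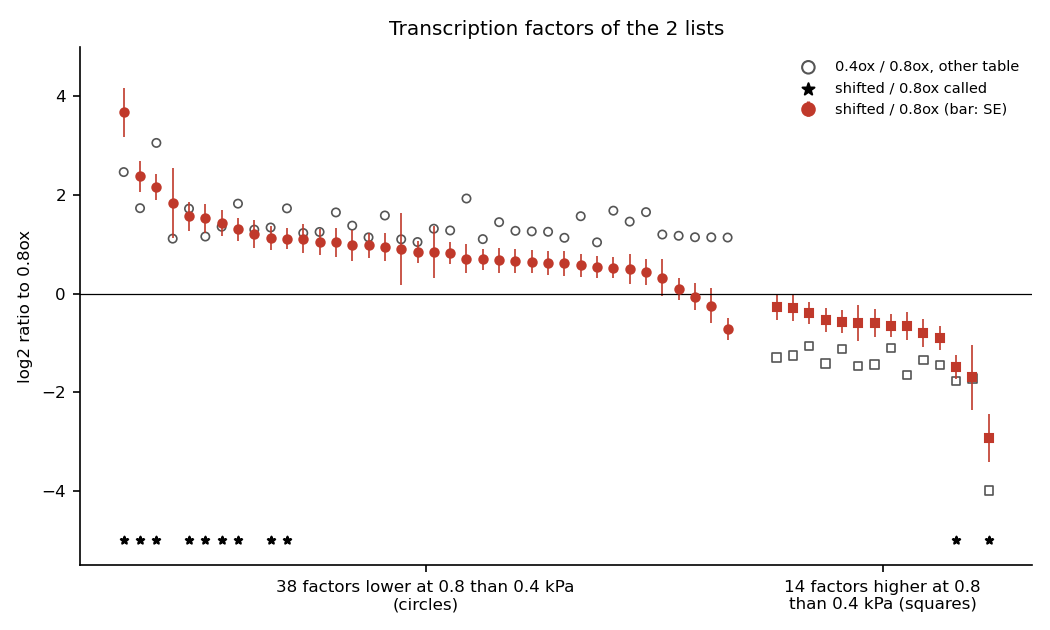
Log2 ratio to 0.8ox (vertical axis) of the 38 tested transcription factors lower at 0.8 than at 0.4 kPa (circles) and the 14 higher (squares), each ordered by its ratio. Filled red points with SE bars are shifted over 0.8ox, open points are 0.4ox over 0.8ox from the table of those conditions, and stars mark the 9 and 2 factors called in shifted over 0.8ox. The 2 ratios share the 0.8ox sample.

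No fermentation or glycolysis marker passed the test. Pyruvate decarboxylase (MDP0000800945) had 5707 ± 884 CPM in the shifted sample and 5965 ± 961 in 0.8ox, a log2 ratio of -0.06 with a 95% interval between -0.70 and 0.57. Alanine aminotransferase (MDP0000319263), which makes alanine from pyruvate, had 7.03 ± 1.23 in the shifted sample and 7.69 ± 1.26 in 0.8ox, with an interval between -0.81 and 0.55. Only 21.1% of its 0.8ox count in the table with 0.4ox was counted here. Lactate dehydrogenase, which makes lactate, had 53.5 CPM in the shifted sample and 71.02 in 0.8ox for MDP0000568449, and 30.6 in the shifted sample and 39.2 in 0.8ox for MDP0000143956. The 95% intervals of both lactate dehydrogenase genes reached 0.04 and 0.12 at their upper ends, so all 4 intervals include 0, and a change within them was not detectable at this precision.

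Sucrose synthase (MDP0000250070), which cleaves sucrose without ATP, had 726 ± 83 CPM in the shifted sample and 1077 ± 126 in 0.8ox, a log2 ratio of -0.57 (interval between -1.03 and -0.11, adjusted p = 0.16). A gene named as phosphofructokinase, the enzyme that commits sugar to glycolysis (MDP0000131308), had 85.8 ± 9.5 in the shifted sample and 56.8 ± 6.4 in 0.8ox, a log2 ratio of 0.59 (interval between 0.15 and 1.04, adjusted p = 0.11). The study also names this model fructokinase and alpha-amylase-like, so its identity is uncertain. Beta-amylase 6 (MDP0000142134), a starch-degrading enzyme, had 19.1 in the shifted sample and 16.5 in 0.8ox. In all, 0 of 7 tested markers were called higher and 0 lower, also by the edgeR exact test, with a median log2 ratio of -0.13. The alcohol dehydrogenase of the list (MDP0000594290) had 1.48 counts in the shifted sample and 2.64 in 0.8ox and could not be tested, although the table with 0.4ox gives it 1191 counts in 0.8ox.

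None of the 5 tested group VII ERFs passed the test. MDP0000403580, 1 of 3 putative orthologues of Arabidopsis RAP2.12, had 1104 ± 127 CPM in the shifted sample and 1114 ± 129 in 0.8ox. Another, MDP0000308922, had 379 ± 40 in the shifted sample and 397 ± 43 in 0.8ox, and the third, MDP0000128979, had 349 ± 37 in the shifted sample and 573 ± 63 in 0.8ox, a log2 ratio of -0.72 (adjusted p = 0.026). Of the putative orthologues of HRE, a hypoxia-induced ERF, MDP0000848905 was listed at 0 in both samples and was not tested. MDP0000288465 had 124 ± 13 in the shifted sample and 117 ± 12 in 0.8ox, where its log2 ratio of 0.09 has an interval between -0.34 and 0.52. Its ratio of 0.4ox over 0.8ox was 1.17 (SE 0.20) on the log2 scale. The sign of 0.09 turns with other scales, and the list gave 0 calls in either direction with a median of -0.01.

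ACC oxidase (MDP0000195885), which carries out the last step of ethylene synthesis, was among the most abundant genes, with 3877 ± 547 CPM in the shifted sample and 8824 ± 1620 in 0.8ox. Its log2 ratio of -1.19 (SE 0.33) did not pass at an adjusted p of 0.011. Of the 4 tested ethylene signalling genes, this one included, 0 were called. The RT-qPCR reference gene (MDP0000375455) had 178 ± 19 in the shifted sample and 166 ± 18 in 0.8ox, a log2 ratio of 0.11 whose sign turns with other scales. A 2-oxoglutarate and Fe(II) dependent oxygenase (MDP0000436890), of a family of enzymes that use oxygen as substrate, had 97.5 counts in the shifted sample and 1.52 in 0.8ox, at least 35.8-fold higher against a floor of 3 counts for the condition. It did not pass (adjusted p = 0.0033), and passed with a pseudocount of 1 (adjusted p = 1.5e-06).

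**Figure D5:**
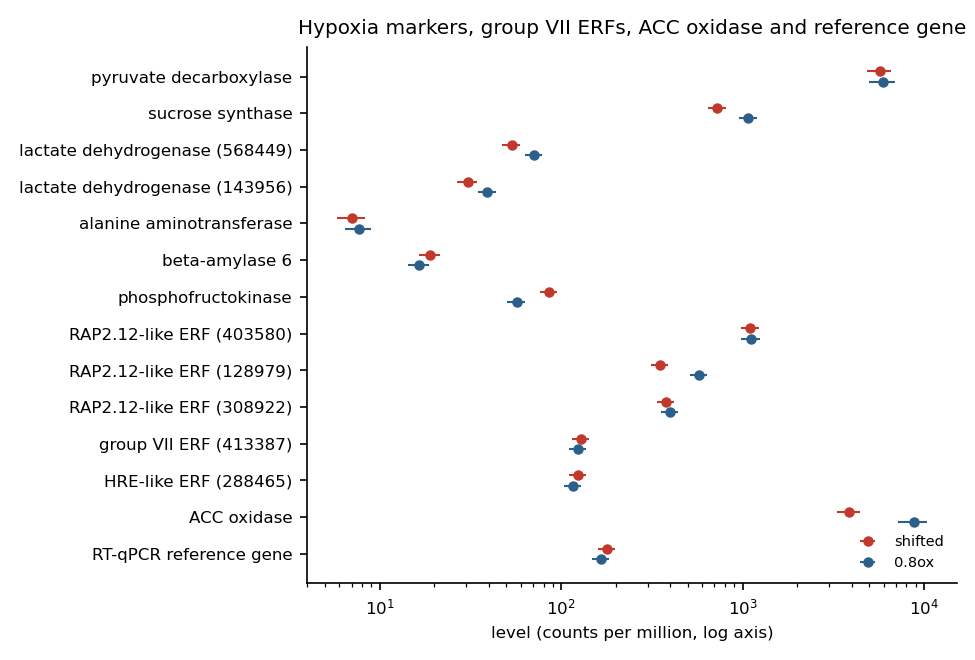
Levels (CPM, log axis) in the shifted sample (red) and in 0.8ox (blue) of the 7 tested hypoxia markers, 5 group VII ERFs, ACC oxidase and the reference gene, with bars of the square root of the modelled variance. Pyruvate decarboxylase stands at 5707 in the shifted sample and 5965 in 0.8ox, ACC oxidase at 3877 in the shifted sample and 8824 in 0.8ox, and none of these genes passed the test.

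Some of the called genes with the largest changes carry no description. MDP0000760432 had 275 ± 30 CPM in the shifted sample and 1.44 ± 0.73 in 0.8ox, a log2 ratio of 7.58 (SE 0.74). Its 0.8ox count here was 10.3% of that in the table with 0.4ox, so most of what that table assigns to it was not counted here. MDP0000137468 had 101.4 ± 12.4 CPM in the shifted sample and 1.99 ± 0.62 in 0.8ox, a log2 ratio of 5.67 (SE 0.48), and 99.8% of its count in the other table was counted here. MDP0000237908, the called gene next to the polygalacturonase among those lower than in 0.8ox, had 22.8 ± 3.0 in the shifted sample and 815 ± 93 in 0.8ox, with 30.4% of its count in the other table counted here. Log2 ratios of 0.4ox over 0.8ox in that table were -0.11 (SE 0.38) for MDP0000760432 and 4.25 (SE 0.52) for MDP0000137468. For MDP0000237908 that ratio was 0.009 (SE 0.30). For 3 called genes 0.8ox held 3 counts or fewer, and against 3 counts they were at least 26.5-fold to 32.4-fold higher in the shifted sample.

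For some genes, fewer 0.8ox counts entered this comparison than the table with 0.4ox holds for the same sample. Whether these genes belong to gene families was not tested. Of the genes over 0 and under 5 counts, 99.9% in each condition were sums of whole reads of 3 libraries within 2e-05 counts. The table with 0.4ox also holds values under 1 read, such as 0.114 counts in 0.8ox for MDP0000262329, where 1 read adds at least 0.222. The share of a gene's 0.8ox count in that other table that was counted here was at least 90% in 218 of the 405 called genes, under 50% in 69 and under 10% in 10. Where the test was restricted to the 10631 genes at 90% or more, 220 were called, 163 higher and 57 lower. A restriction of this kind was chosen after seeing the data.

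A further 42 genes were listed at 0 in one condition and entered no test. Of these, 20 were at 0 in the shifted sample and between 10.8 and 2089 counts in 0.8ox, 7 of them at 100 counts or more. The one with the most counts, MDP0000361157, was listed at 0 in the shifted sample and at 2089 ± 1492 counts in 0.8ox. That modelled SD is 71.4% of the count. For the 7 genes at 100 counts or more it ran between 24.8% and 119%, whereas for genes near 100 counts its median was 13.3% in each condition. Over all 20 genes it ran between 24.7% and 119%, but no such median was computed at the lower counts that the rest of them hold. In the table with 0.4ox the gene has 841 counts in 0.4ox. The other 22 genes were at 0 in 0.8ox and between 10.3 and 58.0 counts in the shifted sample. For some of them the table with 0.4ox gives counts in 0.8ox, 359 for MDP0000286391 and 298 for MDP0000208034. Others, such as MDP0000844237, are at 0 in 0.8ox there too. A 0 in 0.8ox here therefore need not mean that the gene was absent from that sample.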

How the data were processed

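Per the labels, RNA of the shifted sample and of 0.8ox was sequenced by the authors as single 50-base reads (TruSeq libraries, HiSeq2000), aligned to apple genome version 1.0 (TopHat2, Bowtie2) and quantified by Cuffdiff, with 3 replicates per condition. The methods of the paper describe sequencing of the other 3 conditions and not of the shifted sample. The deposited values are the authors' estimated counts, 1 per gene and condition, made by Cuffdiff before deposit, with their modelled variances in squared counts. The versions of the tools are not given in the sources used here.

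Low counts are sums of steps, 1 step being 1 read of 1 library: 0.205, 0.260 and 0.403 counts in the shifted sample, and 0.263, 0.382 and 0.615 in 0.8ox. Read depth thus differed 1.97-fold and 2.34-fold between libraries of a condition, and 10 counts stand for 24.8 to 48.8 reads in the shifted sample and 16.3 to 38.0 in 0.8ox. The product of the 6 tripled steps was 0.969, near 1, as for libraries already put on 1 common scale, so the counts as deposited were kept as an alternative to totals.

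Counts were divided by column totals. A gene was tested at 10 counts or more in at least one condition if neither stood at 0. The SE of a log2 ratio came from both variances by the delta method. A fold against 3 counts or fewer was computed against 3 counts. Analysis used Python 3.11.15, scipy 1.17.1 and edgeR 4.0.16, and was tested on simulated data. Alternatives were other scales (counts as deposited, median centring, TMM), other variances (divided by 3, dispersion part only), other minimum counts (none, 50), a pseudocount of 1, the edgeR exact test, other thresholds and, added after seeing the data, genes counted mostly in whole reads. Names came from the study's tables and text. Named genes were members of the lists, the 15 highest and 15 lowest called genes with a description and 100 or more scaled counts in either condition, the 2 highest and 2 lowest called genes of any kind, and the 10 most abundant named called genes. MDP0000361157 was chosen after its values were seen. Members and lists were chosen with earlier results of these data known. No reference sequence was used.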

Additional observations from a re-analysis of the deposited data

How the results depend on the processing

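No value per library was analysed, so no library could be left out. No paired analysis was possible because each condition has 1 pooled column and the labels carry no shared replicate numbers. The count of 405 called genes, 319 higher and 86 lower in the shifted sample, became 2501 (1956 higher, 545 lower) with the variance divided by 3 and 1148 (886 higher, 262 lower) at an adjusted p under 0.05. With the genes at 90% or more of whole reads alone, an alternative chosen after seeing the data, 220 were called (163 higher, 57 lower). With TMM scaling 374 were called, 230 higher and 144 lower. The other settings gave between 360 (counts as deposited) and 491 (pseudocount of 1) called genes, with 431 by the edgeR exact test. Scaling set the split of directions: 65.8% of called genes were higher with counts as deposited, 64.5% with median centring and 61.5% with TMM, against 78.8% with totals. Of the 405 genes, 323, 320 and 316 were also called under these 3 scales. Of 43 named genes or list members called, 42 kept their call under each of them, the exception being auxin response factor 19, and none changed sign. The respiration, photosynthesis and carbohydrate lists then had 2 calls each in place of 1, and the dicarboxylate carriers 3 in place of 2. With TMM alone, the acyltransferases had 3 calls in place of 2, heat shock and dehydration 2 in place of 1, and the auxin response and sugar transporter lists 1 each in place of 0. With no minimum count, 3 of the 43 were lost, 1 each from the lists of sulfate transporters, MLP-like genes and ribosomal proteins. Among uncalled genes, signs turned for MDP0000288465 (-0.048, -0.055 and -0.081 with counts as deposited, median centring and TMM), the reference gene MDP0000375455 (-0.035, -0.042 and -0.067), MDP0000413387 (-0.089, -0.096 and -0.12) and MDP0000733506 (-0.14, -0.14 and -0.17, and -0.015 with edgeR).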
